A study of Mus musculus with 16 samples.

Results

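Retinoic acid is made inside cells from vitamin A and acts on gene expression through nuclear receptors. Retinol reaches tissue on a carrier protein, is oxidised to retinal and then, by retinaldehyde dehydrogenases, to retinoic acid, which intracellular binding proteins carry to the receptors or to degrading enzymes. The receptors bind DNA as pairs of a retinoic acid receptor (RAR) and a retinoid X receptor (RXR). In the adult brain the meninges and the tanycytes that line the third ventricle are known sites of this synthesis.

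Described here are 9 genes of this pathway, out of 45706 gene rows measured in mouse hypothalamus. They are the binding and carrier proteins Crabp1, Crabp2 and Rbp4, the synthesising enzymes Aldh1a1 and Aldh1a2, and the receptors Rara, Rarb, Rarg and Rxrg, all found by symbol. Crabp1 was chosen by its pulldown over input ratio in these libraries, so its enrichment is described with no test. The other 8 were added by name for their role in the pathway.

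The libraries come from bacTRAP, in which ribosomes carrying GFP-tagged L10a are precipitated from cells that express Cre recombinase. The Cre-dependent transgene (ROSA-STOP-L10a-bactrap) was switched on in neurons expressing Pnoc, the gene of the nociceptin precursor, in all groups, so both genotypes carry the tag. There were 16 libraries in 4 groups of 4, namely pulldown and input of pools 5 to 8, labelled Pnoc Lepr deletion, and pulldown and input of control pools 1 to 4, labelled Control (Lepr-flox). Each pool held the hypothalami of 4 mice on a C57Bl/6N background, fed chow and taken random-fed at 12 weeks per the treatment protocol, or at 10 to 12 weeks per the extraction protocol. The input of a pool is an aliquot of its lysate before precipitation, so it holds RNA of all hypothalamic cells. A pool is a set of animals, so the spread between libraries does not show variation between single mice, and in such bulk RNA fewer cells of a type and less RNA per cell cannot be told apart.

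Library totals were 64435952 to 78623636 estimated counts. Levels are given as CPM, counts relative to library size after TMM scaling, which sets libraries level on the bulk of genes, or as TPM, abundances corrected for transcript length, used where genes of different length are compared. Lepr, the leptin receptor gene that the deletion targets, had 2.43, 2.54, 2.83 and 2.68 CPM in pulldown of pools 5 to 8, labelled Lepr deletion, against 1.86, 1.42, 1.65 and 1.55 CPM in the control pulldown of pools 1 to 4. Its input levels were 5.94, 5.26, 8.14 and 4.78 CPM in pools labelled Lepr deletion, against 4.54, 5.11, 3.49 and 4.01 CPM in control pools. Lepr was thus higher, not lower, in pulldown labelled Lepr deletion, by 0.71 on the log2 scale (SE 0.12, adjusted p = 0.0386, by the quasi-likelihood test of edgeR, Benjamini-Hochberg adjusted). Lepr was lower in pulldown than in input, at -1.215 in pools labelled Lepr deletion (adjusted p = 1.60e-05, edgeR) and -1.42 in control pools (adjusted p = 5.53e-06, edgeR). A gene-level total cannot show whether a floxed exon is missing, so these values do not check the deletion. The direction between genotypes is not that of a loss of Lepr RNA, and every difference by genotype here follows the labels. All 10 neuronal and all 9 GABAergic markers were higher in pulldown than in input in both genotypes, and all 10 tanycyte or ependymal and all 10 astrocyte markers were lower. Shares over all tested genes were 28.8% higher and 32.8% lower in pools labelled Lepr deletion, and 30.1% and 34.6% in control pools. The dopaminergic list had 5 of 6 markers higher in both genotypes. The striatal list had 1 of 7 tested higher in both, with 3 lower in pools labelled Lepr deletion and 2 in control pools. Without pools 1 and 5, 3363 genes were called between genotypes in pulldown, against 108 with all pools, so members that passed without them are also given below. Values between genotypes of the other members, the further pathway genes and the markers are given with all pools only.

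Sequence near an annotated start is shown for the receptor gene with the textbook retinoic acid response element and for Crabp1, since both encode proteins that bind retinoic acid. Each line gives bases -120 to -1 relative to the annotated start (RefSeq, GRCm38.p6), on the gene's strand, and capitals mark a direct repeat of the RAR and RXR half-site.
Rarb, chr14:16575477-16575596, minus strand: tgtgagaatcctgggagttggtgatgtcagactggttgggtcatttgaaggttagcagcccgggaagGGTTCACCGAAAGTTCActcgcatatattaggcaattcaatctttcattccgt
Crabp1, chr9:54764628-54764747, plus strand: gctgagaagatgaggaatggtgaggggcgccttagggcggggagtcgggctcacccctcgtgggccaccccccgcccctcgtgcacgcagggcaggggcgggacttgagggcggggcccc

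The half-sites searched were AGGTCA with its variant AGTTCA, and GGGTCA with its variant GGTTCA, as direct repeats spaced by 1, 2 or 5 bases on either strand, in windows from 250 bases before to 50 after each start. The Rarb repeat spans bases -53 to -37 with a spacing of 5 bases. The Rarb start used lies inside the gene, which spans 16430839 to 17082331. No window at its outermost start, at 17082331, was at hand. A repeat with that spacing was present in 0.0974% of 32851 promoter windows, and any of the 3 kinds in 0.587%. RefSeq windows were at hand for 8 of the 9 genes, at 15 annotated starts, and 1 of these 15 windows, that of Rarb, held a repeat. A half-site, alone or within a repeat, was present in 8 of the 15 windows and in 43.7% of all windows. The Crabp1 window held none of these half-sites, and its printed stretch has 74.2% G or C, against 46.7% for that of Rarb. A match of letters is not a measured binding site.

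Crabp1 (ENSMUSG00000032291, chromosome 9, 54764748 to 54773110, GRCm38.p6) encodes a cytosolic protein that binds retinoic acid. It had 51.6, 61.4, 59.9 and 64.8 CPM in pulldown of pools 5 to 8, labelled Lepr deletion, against 10.2, 15.2, 16.3 and 17.1 CPM in their input. Pulldown of control pools 1 to 4 held 63.7, 51.4, 56.7 and 52.1 CPM, against 15.1, 12.2, 14.6 and 12.8 CPM in input. Every pulldown library lay above every input library. The log2 fold change of pulldown over input was 2.00 (SE 0.13) in pools labelled Lepr deletion and 2.01 (SE 0.09) in control pools, which placed Crabp1 at rank 26 of 17423 tested genes and at rank 24 of 17570. Within a pool the pulldown level was 3.67 to 5.07 times the input level in pools labelled Lepr deletion and 3.89 to 4.22 times in control pools, and the highest of these, in pool 5, goes with the lowest input level of the 8 pools.

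Per length, Crabp1 was the most abundant of the 9 genes in pulldown. It averaged 246.3 ± 28.3 TPM in pulldown labelled Lepr deletion, against 32.2 ± 7.28 TPM in input, and 225.1 ± 17.5 TPM in control pulldown, against 27.7 ± 2.83 TPM in input (SD, n = 4 each). By TPM it stood at rank 757 of all gene rows in pulldown labelled Lepr deletion and at rank 2984 in input, and at rank 847 in control pulldown and 3197 in input. TPM gave larger ratios of pulldown to input than scaled CPM, 7.65 against 4.04 in pools labelled Lepr deletion and 8.13 against 4.09 in control pools. Across tested genes the log2 fold change on log2(TPM + 1) was higher than under TMM by a median of 0.86 in pools labelled Lepr deletion and 0.93 in control pools. Fold changes below are relative to the bulk of genes under TMM scaling.

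**Figure D1:**
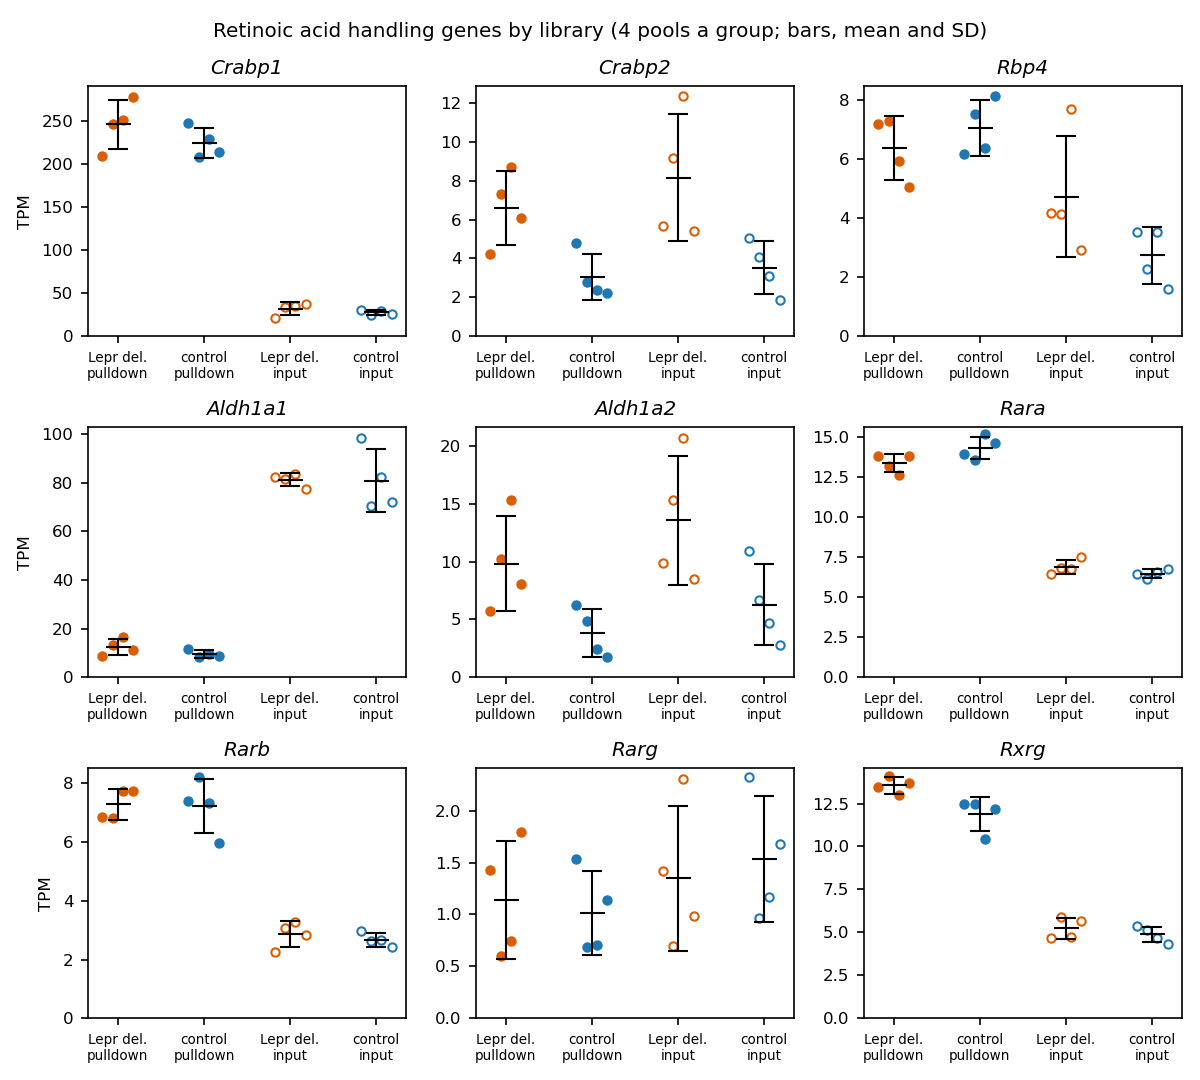
TPM of the 9 genes in each library, one panel a gene, with pulldown (filled) and input (open) of pools labelled Lepr deletion (orange) and control pools (blue). Bars are the mean and SD of 4 pools. Crabp1 averages 246.3 and 225.1 TPM in the 2 pulldown groups, while Aldh1a1 averages 81.2 and 80.8 TPM in the 2 input groups and Aldh1a2 and Crabp2 spread widely between pools.

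The plot of TPM by library shows that the order of the genes differed between pulldown and input. In pulldown Rara and Rxrg followed Crabp1, at 13.4 ± 0.55 and 13.6 ± 0.47 TPM in pools labelled Lepr deletion and 14.3 ± 0.70 and 11.9 ± 1.00 TPM in control pools (SD, n = 4 each). Aldh1a1 came next, at 12.4 ± 3.23 TPM in pulldown labelled Lepr deletion and 9.60 ± 1.50 TPM in control pulldown, and in pools labelled Lepr deletion it lay within its own spread of both receptors. In input Aldh1a1 stood first, at 81.2 ± 2.65 TPM in pools labelled Lepr deletion and 80.8 ± 12.9 TPM in control pools, with Crabp1 in the next place. Rarg was the least abundant in every group, at 1.14 ± 0.57 TPM in pulldown and 1.35 ± 0.70 TPM in input labelled Lepr deletion, and at 1.01 ± 0.40 TPM in pulldown and 1.53 ± 0.60 TPM in input of control pools.

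The patterns most like that of Crabp1 over the 16 libraries, by the root mean square difference of centred log2 CPM among 11524 candidate genes, were those of Pgam5 (0.19), Sst (0.23), Ghrh (0.27), Snhg3 (0.27), Ctxn3 (0.30), Pnoc (0.30), Rprm (0.33) and Vgll3 (0.39). Sst encodes somatostatin, Ghrh the growth hormone releasing hormone of arcuate neurons, and Pnoc is the gene that drives Cre here. Sst averaged 1418 TPM in pulldown and 170.5 TPM in input labelled Lepr deletion, and 1516 TPM in pulldown and 170.4 TPM in input of control pools. Pnoc averaged 10.3 TPM in pulldown and 1.71 TPM in input labelled Lepr deletion, and 10.7 TPM in pulldown and 1.69 TPM in input of control pools. This likeness is a description over libraries that share pools and is dominated by the step between pulldown and input.

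Of the other 8 genes, 2 were higher and 4 lower in pulldown than in input in pools labelled Lepr deletion, where 61.6% of 17423 tested genes were called (28.8% higher and 32.8% lower). In control pools 3 were higher and 4 lower, where 64.8% of 17570 tested genes were called (30.1% higher and 34.6% lower). Most genes were called in these comparisons, so the counts do not set the 8 apart. Their median log2 fold change was -0.84 in pools labelled Lepr deletion and -0.42 in control pools, beside -0.01 and -0.02 over all tested genes. All 9 genes passed the filter on low counts in every comparison.

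**Figure D2:**
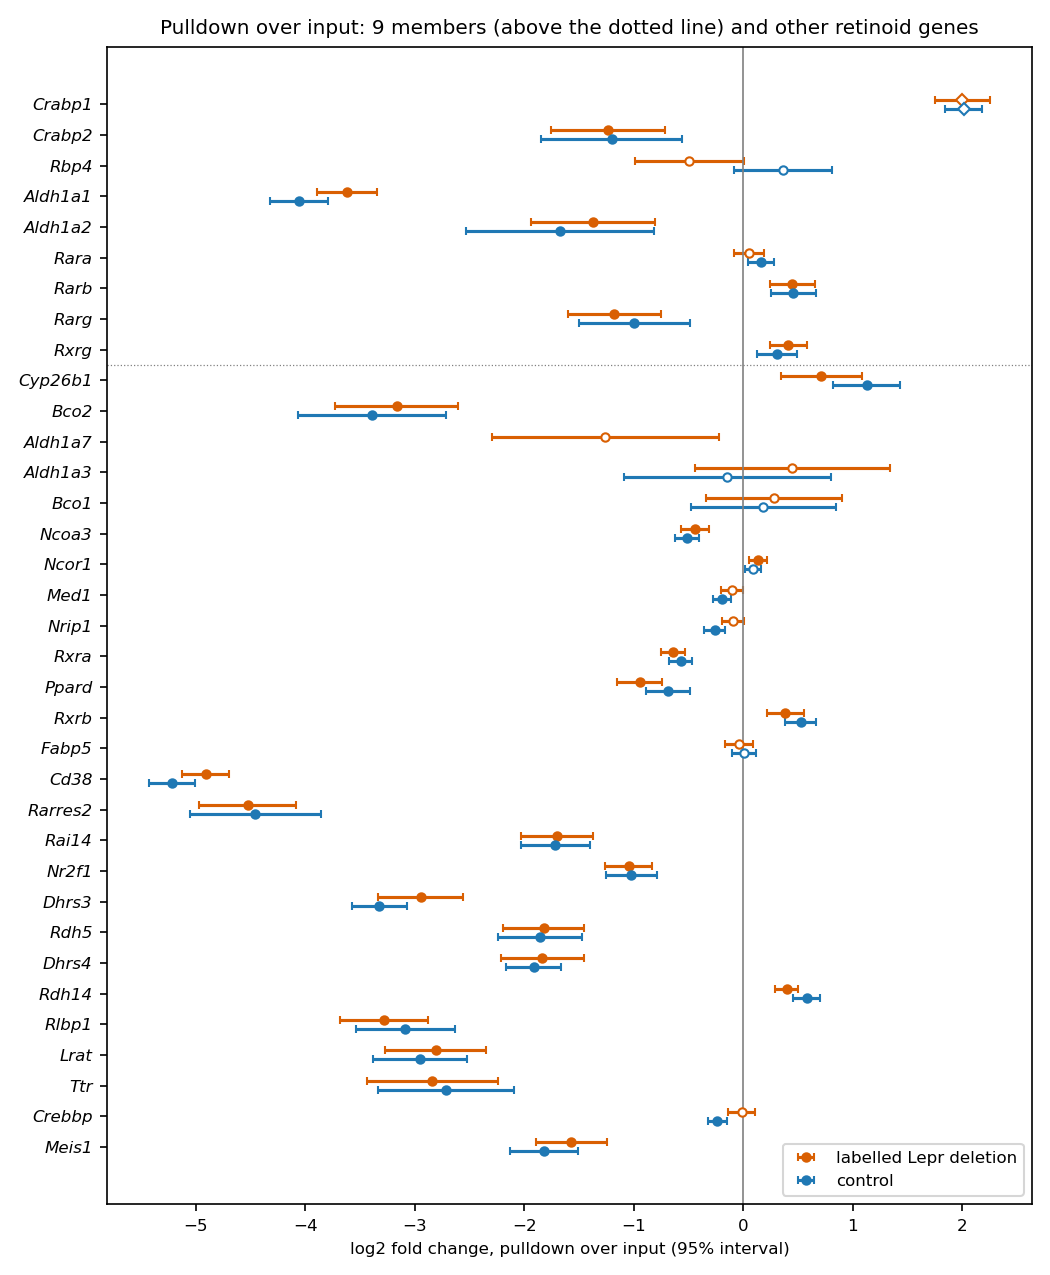
Log2 fold change of pulldown over input, with 95% intervals, for the 9 genes (above the dotted line) and other retinoid genes named by rule, in pools labelled Lepr deletion (orange) and control pools (blue). Filled circles passed the test, open circles did not, and Crabp1 (open diamond, 2.00 and 2.01) was not tested. Aldh1a1 lies at -3.62 and -4.05. Intervals use the normal quantile and are narrower than the test implies.

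The 2 synthesising enzymes were depleted from pulldown. Aldh1a1 (chromosome 19, 20492583 to 20643463) encodes retinaldehyde dehydrogenase 1 and had 6.84, 10.3, 12.4 and 8.23 CPM in pulldown of pools 5 to 8, labelled Lepr deletion, against 120.4, 112.3, 118.5 and 109.4 CPM in input. The control pools 1 to 4 held 9.43, 6.56, 7.27 and 6.64 CPM in pulldown, against 147.6, 107.2, 125.6 and 108.9 CPM in input. The groups lay far apart in both genotypes. Its log2 fold change was -3.62 (SE 0.14, adjusted p = 8.58e-11, edgeR) in pools labelled Lepr deletion and -4.05 (SE 0.14, adjusted p = 3.28e-10, edgeR) in control pools, a mean level in input that is 12.2 and 16.4 times that in pulldown. Aldh1a1 shares sequence with its near-identical neighbour Aldh1a7 and its span overlaps 3 other annotated genes, so its counts carry some uncertainty of assignment.

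Aldh1a2 (chromosome 9, 71215789 to 71296243) encodes retinaldehyde dehydrogenase 2, the synthesising enzyme known from meninges. It had 4.98, 8.88, 12.9 and 6.61 CPM in pulldown of pools 5 to 8, labelled Lepr deletion, against 16.02, 23.6, 32.7 and 13.4 CPM in input. Levels in control pools 1 to 4 were 5.58, 4.22, 2.10 and 1.52 CPM in pulldown, against 18.3, 11.4, 7.96 and 4.65 CPM in input. Pulldown was below input in each of the 8 pools, although in control pools the 2 groups overlapped because the pools differed so much. The log2 fold change was -1.37 (SE 0.29, adjusted p = 0.000994, edgeR) in pools labelled Lepr deletion and -1.67 (SE 0.44, adjusted p = 0.00536, edgeR) in control pools. On log2(TPM + 1), where the median gene is shifted upwards, it was -0.43 (adjusted p = 0.218, limma) and -0.57 (adjusted p = 0.209, limma) and was not called. Neither fit pairs the pulldown and input of a pool, so both SEs include the spread between pools. In control pools the SD of the log2 ratio within a pool was 0.21, against 0.83 for log2 CPM in input and 0.87 in pulldown. The same SDs were 0.27, 0.58 and 0.59 in pools labelled Lepr deletion.

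Among the binding proteins, Crabp2 went the opposite way to Crabp1. Crabp2 (chromosome 3, 87948693 to 87953372) encodes the paralog that delivers retinoic acid to nuclear RARs, and it had 1.27, 2.22, 2.52 and 1.73 CPM in pulldown of pools 5 to 8, labelled Lepr deletion, against 3.26, 4.95, 6.89 and 3.00 CPM in input. The values of control pools 1 to 4 were 1.50, 0.834, 0.714 and 0.660 CPM in pulldown, against 3.00, 2.45, 1.87 and 1.11 CPM in input. It was lower in pulldown within each of the 8 pools. Its log2 fold change was -1.24 (SE 0.27, adjusted p = 0.00121, edgeR) in pools labelled Lepr deletion and -1.20 (SE 0.33, adjusted p = 0.00707, edgeR) in control pools, and with log2(TPM + 1) it did not pass in either, at -0.24 (adjusted p = 0.393, limma) and -0.15 (adjusted p = 0.589, limma). With library totals the control value was -0.66 (adjusted p = 0.0824, edgeR) and did not pass.

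Rbp4 (chromosome 19, 38116620 to 38125321) encodes the plasma carrier of retinol and passed in neither genotype. It had 2.15, 2.21, 1.77 and 1.47 CPM in pulldown of pools 5 to 8, labelled Lepr deletion, against 2.396, 2.25, 4.30 and 1.68 CPM in input. Control pools 1 to 4 held 1.99, 2.27, 1.91 and 2.45 CPM in pulldown, against 2.10, 1.37, 2.13 and 0.994 CPM in input. Pulldown and input overlapped in both genotypes. The ratio of pulldown to input was below 1 in 4 of 4 pools labelled Lepr deletion and above 1 in 2 of 4 control pools, with log2 fold changes of -0.49 (SE 0.25, adjusted p = 0.107, edgeR) and 0.36 (SE 0.23, adjusted p = 0.182, edgeR). In pools labelled Lepr deletion the value was -0.66 (adjusted p = 0.0304, edgeR) without the input of pool 8, -0.16 without that of pool 7 and 0.41 on log2(TPM + 1). In control pools it passed with library totals, at 0.91 (adjusted p = 0.00312, edgeR), and on log2(TPM + 1), at 1.14 (adjusted p = 0.000262, limma).

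Of the receptors, Rarb and Rxrg were modestly higher in pulldown. Rarb (chromosome 14, 16430839 to 17082331), itself a classical retinoic acid target, had 8.16, 8.16, 8.92 and 8.80 CPM in pulldown of pools 5 to 8, labelled Lepr deletion, against 5.03, 6.53, 7.11 and 6.10 CPM in input. For control pools 1 to 4 the values were 9.07, 9.74, 8.67 and 6.98 CPM in pulldown, against 6.83, 6.10, 6.20 and 5.61 CPM in input. Its groups did not overlap in either genotype. Pulldown over input gave a log2 fold change of 0.45 (SE 0.10, adjusted p = 0.00229, edgeR) in pools labelled Lepr deletion and 0.46 (SE 0.11, adjusted p = 0.00263, edgeR) in control pools.

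Rxrg (chromosome 1, 167598362 to 167639623), a partner of the RARs with restricted expression in brain, had 9.69, 10.1, 9.53 and 10.1 CPM in pulldown of pools 5 to 8, labelled Lepr deletion, against 6.66, 8.06, 6.83 and 7.88 CPM in input. Among control pools 1 to 4 levels were 10.0, 9.56, 8.13 and 8.47 CPM in pulldown, against 7.86, 7.71, 6.91 and 6.40 CPM in input. Here too the groups did not overlap. The log2 fold change was 0.41 (SE 0.09, adjusted p = 0.00101, edgeR) in pools labelled Lepr deletion and 0.31 (SE 0.09, adjusted p = 0.0131, edgeR) in control pools.

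Rara (chromosome 11, 98927800 to 98974942), the broadly expressed RAR, differed least. It had 15.1 to 16.9 CPM in pulldown labelled Lepr deletion, against 14.8 to 16.8 CPM in input, and 16.5 to 18.6 CPM in control pulldown, against 14.7 to 16.3 CPM in input. Its log2 fold change was 0.05 (SE 0.07, adjusted p = 0.523, edgeR) in pools labelled Lepr deletion and 0.16 (SE 0.06, adjusted p = 0.0364, edgeR) in control pools. In pools labelled Lepr deletion it passed with library totals, at 0.51 (adjusted p = 1.34e-05, edgeR), and on log2(TPM + 1), at 0.87 (adjusted p = 4.45e-07, limma). The control call was lost without the input of pool 1 (adjusted p = 0.0631, edgeR) or pool 2 (0.0880), without the pulldown of pool 3 (0.0892) or pool 4 (0.0576), and without pool 1 in both fractions (0.0556).

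Rarg (chromosome 15, 102234938 to 102257522), the RAR known best from skin and cartilage, was lower in pulldown. It had 0.911, 0.682, 0.825 and 0.739 CPM in pulldown of pools 5 to 8, labelled Lepr deletion, against 1.43, 1.37, 2.25 and 2.05 CPM in input. Those of control pools 1 to 4 held 0.746, 0.759, 0.795 and 1.25 CPM in pulldown, against 2.08, 2.15, 1.07 and 1.71 CPM in input. The groups were apart in pools labelled Lepr deletion and overlapped in control pools. The log2 fold change was -1.18 (SE 0.22, adjusted p = 0.000339, edgeR) in pools labelled Lepr deletion and -0.996 (SE 0.26, adjusted p = 0.00523, edgeR) in control pools. On log2(TPM + 1) it was -0.13 (adjusted p = 0.613, limma) and -0.32 (adjusted p = 0.132, limma), and no call was made. The call was also lost with length-scaled counts in pools labelled Lepr deletion, at -1.16 (adjusted p = 0.0530, edgeR), and with library totals in control pools, at -0.45 (adjusted p = 0.125, edgeR).

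**Figure D3:**
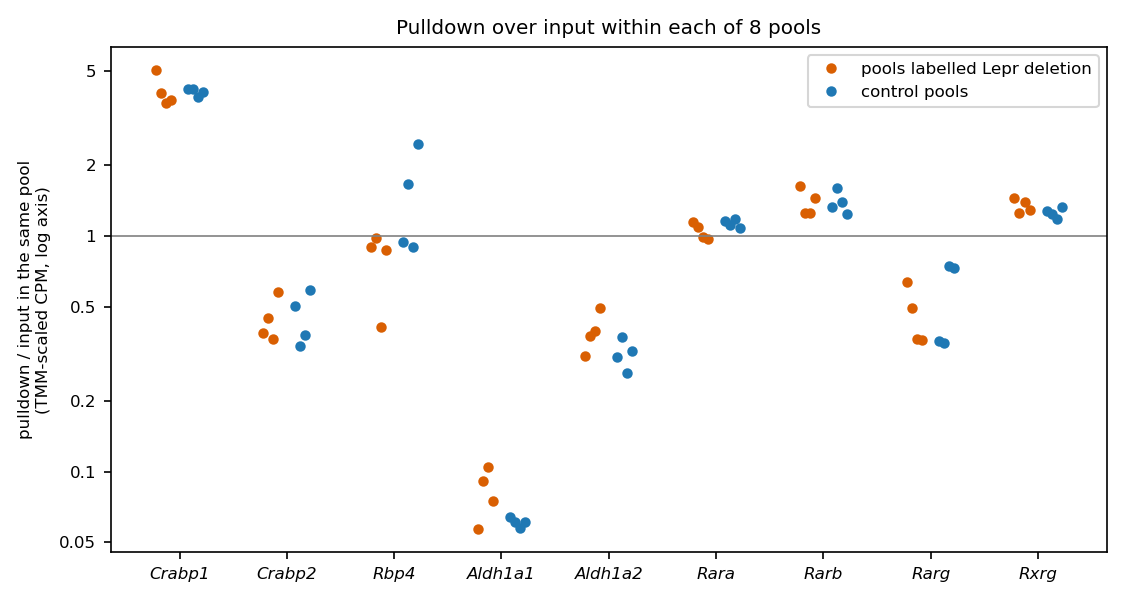
Pulldown level divided by input level in the same pool, as TMM-scaled CPM on a log axis, for the 9 genes in 4 pools labelled Lepr deletion (orange) and 4 control pools (blue). The grey line marks equal levels. Crabp1 lies at 3.67 to 5.07 and Aldh1a1 at 0.0568 to 0.104 over all pools, while Rbp4 reaches 2.47 in control pools and stays at or below 0.982 in pools labelled Lepr deletion.

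The plot of ratios within pools shows how closely the pools of a genotype followed each other. Aldh1a1 had a ratio of 0.0568 to 0.104 in pools labelled Lepr deletion and of 0.0578 to 0.0639 in control pools. Aldh1a2, whose levels differed 8.48-fold between the highest and lowest pulldown library and 7.04-fold between the highest and lowest input library, had a ratio of 0.311 to 0.495 in pools labelled Lepr deletion and of 0.263 to 0.371 in control pools. Its differences between pools were thus shared by pulldown and input. None of the 9 genes was called for a difference in enrichment between genotypes, in a test that called 2 genes, 0.0108% of 18530 (4 with pool as a block, and 1660 at an unadjusted p under 0.05). The largest differences, Lepr deletion by label minus control, were -0.87 for Rbp4 (SE 0.37, unadjusted p = 0.0298, adjusted p = 0.511, edgeR) and 0.43 for Aldh1a1 (SE 0.20, adjusted p = 0.556, edgeR), and Crabp1 was at -0.02 with a 95% interval of -0.35 to 0.31.

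A further 60 genes of retinoid handling, in 7 lists by role, were examined beside the 9. In pools labelled Lepr deletion 5 of the 47 that could be tested were higher in pulldown and 24 lower, with a median log2 fold change of -0.40. In control pools 4 of 46 were higher and 29 lower, with a median of -0.32, beside -0.01 and -0.02 over all tested genes. The number called in either direction is near the 61.6% and 64.8% of all genes, while those lower stand beside 32.8% and 34.6%. With library totals in place of TMM, 17 were higher and 18 lower in pools labelled Lepr deletion and 21 higher and 17 lower in control pools, so the balance follows the scaling. Against the median of all genes the lists' median lay lower by a like amount under both, at -0.38 with TMM and with totals in pools labelled Lepr deletion and at -0.30 with both in control pools.

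Genes of retinol transport and storage were the lowest group, with 5 of 6 tested genes lower and none higher in either genotype, where 32.8% and 34.6% of all genes were lower. The median was -2.16 in pools labelled Lepr deletion and -2.33 in control pools. With library totals 4 were lower in pools labelled Lepr deletion and 5 in control pools. On log2(TPM + 1) 4 and 3 were lower, with medians of -0.54 and -0.38, beside 0.70 and 0.75 over all tested genes. Rlbp1, a retinal-binding protein of glia, was at -3.28 and -3.09, and Lrat, which esterifies retinol for storage, at -2.81 and -2.95. Ttr, the transthyretin that carries Rbp4 in blood and is made by choroid plexus, was at -2.84 and -2.71. Summed markers of astrocytes were at 52.4 to 64.8 TPM in pulldown and 491.1 to 529.5 TPM in input labelled Lepr deletion, and at 49.4 to 56.1 TPM in pulldown and 501.8 to 547.9 TPM in input of control pools, and their part in the result was not tested.

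Of the retinol and retinal oxidoreductases, 1 of 12 tested genes was higher and 7 lower in pools labelled Lepr deletion, and 1 of 11 higher and 6 lower in control pools, numbers called near the 61.6% and 64.8% of all genes. With library totals 3 were higher and 4 lower in pools labelled Lepr deletion and 6 higher and 3 lower in control pools, and on log2(TPM + 1) 7 and 3, and 8 and 3, so the balance turns with the scaling. Dhrs3, which reduces retinal back to retinol, was at -2.94 and -3.32, Dhrs4 at -1.84 and -1.91 and Rdh5 at -1.82 and -1.86. The gene that was higher was Rdh14, a retinol dehydrogenase, with 50.2 ± 2.56 CPM in pulldown and 37.8 ± 1.33 CPM in input labelled Lepr deletion, and 53.8 ± 4.96 CPM in pulldown and 35.5 ± 1.33 CPM in input of control pools (SD, n = 4 each). Of the other synthesis genes only Bco2, a carotenoid-cleaving oxygenase, passed, at -3.17 in pools labelled Lepr deletion and -3.39 in control pools, while Bco1 was at 0.28 and 0.18 and Aldh1a3, the remaining retinaldehyde dehydrogenase, at 0.45 and -0.15.

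Among the enzymes that degrade retinoic acid, Cyp26b1 alone could be tested in these comparisons, and it was higher in pulldown. It had 6.54 ± 0.89 CPM in pulldown and 3.96 ± 1.30 CPM in input labelled Lepr deletion, and 5.97 ± 0.76 CPM in pulldown and 2.69 ± 0.57 CPM in input of control pools (SD, n = 4 each). For pulldown over input the log2 fold change was 0.71 (SE 0.19, adjusted p = 0.00516, edgeR) in pools labelled Lepr deletion and 1.13 (SE 0.16, adjusted p = 5.51e-05, edgeR) in control pools.

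The other receptor partners were split. Rxrb was higher, at 0.38 in pools labelled Lepr deletion and 0.52 in control pools, and Rxra was lower, at -0.64 and -0.57. Ppard, a fatty acid receptor that can take up retinoic acid from Fabp5, was lower, at -0.95 and -0.69, and Fabp5 was at -0.04 and 0.01 and did not pass. On log2(TPM + 1) Rxra was instead at 0.063 and 0.37 and Ppard in control pools at 0.070. Of the 9 receptor cofactors, the corepressor Ncor1 was higher and Ncoa3 lower in pools labelled Lepr deletion, where 61.6% of all genes were called. In control pools 6 were lower and none higher, where 64.8% of all genes were called. The control shifts were small and turned positive with library totals for Ncoa3, Crebbp, Nrip1 and Med1. With library totals 8 of the 9 were higher in both genotypes. On log2(TPM + 1) 8 were higher in pools labelled Lepr deletion and 9 in control pools, so the balance turns with the scaling.

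Of the genes known as retinoic acid targets, 1 of 11 tested was higher and 8 lower in pools labelled Lepr deletion, and 1 of 12 higher and 9 lower in control pools, where 32.8% and 34.6% of all genes were lower. With library totals 3 were higher and 7 lower in pools labelled Lepr deletion and 4 higher and 8 lower in control pools, and on log2(TPM + 1) 4 were higher and 6 lower in each. Cd38, an NAD-consuming ectoenzyme, had 0.638 ± 0.092 CPM in pulldown and 19.1 ± 0.861 CPM in input labelled Lepr deletion, and 0.566 ± 0.103 CPM in pulldown and 20.8 ± 0.684 CPM in input of control pools (SD, n = 4 each). Rarres2, which encodes the secreted protein chemerin, was at -4.53 and -4.45, Rai14 at -1.70 and -1.72 and the transcription factor Nr2f1 at -1.05 in pools labelled Lepr deletion.

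Between genotypes, where Lepr RNA was higher in pulldown labelled Lepr deletion, no gene of the 9 was called. In pulldown 0.641% of 16859 tested genes were called and in input 0.231% of 17735, and at an unadjusted p under 0.05 the 2 comparisons had 3340 and 2490 genes. With all pools, none of the other 60 pathway genes was called either, out of 44 tested in pulldown and 48 in input. Crabp1 differed by 0.10 in pulldown (SE 0.08, 95% interval -0.06 to 0.26, adjusted p = 0.526, edgeR) and by 0.10 in input (SE 0.13, 95% interval -0.16 to 0.37, adjusted p = 0.782, edgeR). Of the 4 receptors, Rara was at -0.11 in pulldown, Rarb at -0.01, Rarg at -0.16 and Rxrg at 0.14, and all 4 lay between -0.01 and 0.03 in input.

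**Figure D4:**
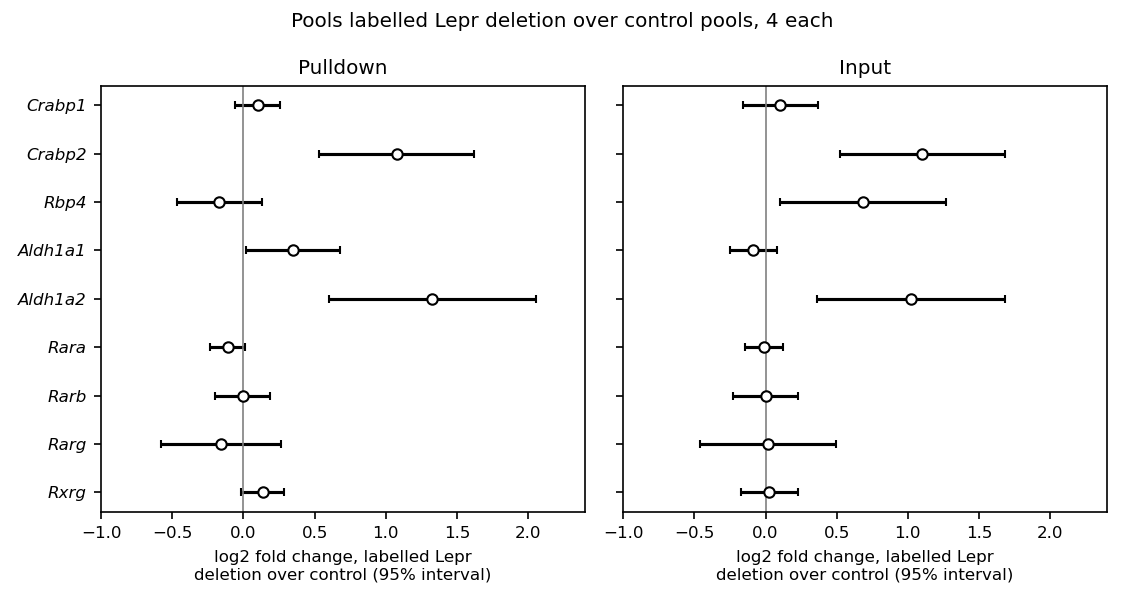
Log2 fold change between pools labelled Lepr deletion and control pools, with 95% intervals, for the 9 genes in pulldown (left) and input (right). No value passed the test over all genes, and the intervals, from the normal quantile, are narrower than the test implies. Crabp2 lies at 1.08 in pulldown and 1.103 in input and Aldh1a2 at 1.33 and 1.02, whereas Crabp1, Rara, Rarb and Rxrg lie within 0.14 of 0 in both.

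The plot of differences by genotype sets apart Crabp2 and Aldh1a2, which had the largest differences of the 9 in both fractions. Crabp2 averaged 1.93 ± 0.55 CPM in pulldown labelled Lepr deletion and 0.928 ± 0.39 CPM in control pulldown (SD, n = 4 each), a log2 difference of 1.08 (SE 0.28, adjusted p = 0.0899, edgeR). In input it averaged 4.52 ± 1.80 CPM in pools labelled Lepr deletion and 2.11 ± 0.81 CPM in control pools, a log2 difference of 1.103 (SE 0.30, adjusted p = 0.162, edgeR), and here the groups did not overlap, since the lowest pool labelled Lepr deletion and the highest control pool were at 3.00 and 2.995 CPM. In the authors' deposited table the same pulldown difference is 1.08 with an adjusted p of 0.00689, and DESeq2 gave an adjusted p of 0.00618 here, so the call depends on the test.

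Aldh1a2 averaged 8.33 ± 3.41 CPM in pulldown labelled Lepr deletion and 3.35 ± 1.89 CPM in control pulldown (SD, n = 4 each), a log2 difference of 1.33 (SE 0.37, adjusted p = 0.1, edgeR). In input it averaged 21.4 ± 8.67 CPM in pools labelled Lepr deletion and 10.6 ± 5.82 CPM in control pools, a log2 difference of 1.02 (SE 0.34, adjusted p = 0.224, edgeR). The groups overlapped in both fractions, since control pool 1 lay above pool 5 in each. Aldh1a1 was at 0.35 in pulldown (SE 0.17, adjusted p = 0.272, edgeR) and -0.09 in input, and Rbp4 at -0.17 in pulldown and 0.68 in input (SE 0.30, adjusted p = 0.322, edgeR).

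These calls depended on single pools and on the filter. With all pools and no filter on low counts, Crabp2 passed at 1.06 in pulldown (adjusted p = 0.0466, edgeR) and 1.11 in input (0.0133), and Aldh1a2 at 1.32 (0.0452) and 1.03 (0.0209). Without the pulldown of control pool 1, Crabp2 was at 1.40 (adjusted p = 0.0216, edgeR) and Aldh1a2 at 1.68 (adjusted p = 0.0375, edgeR), and without the pulldown of pool 5 they were at 1.22 (0.0260) and 1.50 (0.0385). In input, both passed without control pool 1, at 1.32 (adjusted p = 0.0404, edgeR) and 1.43 (adjusted p = 0.0322, edgeR). Without pools 1 and 5, Crabp1 at 0.22 (adjusted p = 0.0124, edgeR) and Aldh1a1 at 0.60 (adjusted p = 0.00514, edgeR) passed as well in pulldown, beside Crabp2 at 1.56 (0.000418) and Aldh1a2 at 1.86 (0.00150), in a fit that called 3363 genes. In input, Crabp1 at 0.30 (adjusted p = 0.0423, edgeR), Crabp2 at 1.45 (0.00560) and Aldh1a2 at 1.54 (0.00328) then passed. Control pool 1 had the highest control level of Crabp1, Crabp2, Aldh1a1 and Aldh1a2 in both fractions. In pulldown, pool 5 had the lowest level of each among pools labelled Lepr deletion. Leaving out such pools widens these differences by construction, so the smaller adjusted p-values are no separate support.

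**Figure D5:**
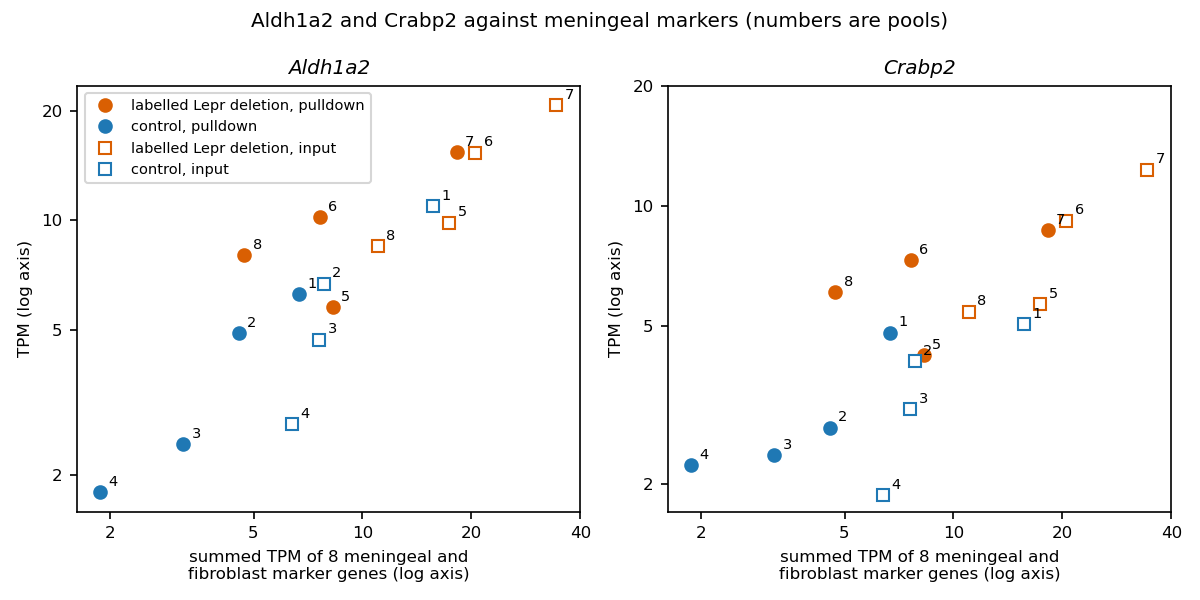
TPM of Aldh1a2 (left) and Crabp2 (right) against the summed TPM of 8 meningeal and fibroblast marker genes, both on log axes, in pulldown (circles) and input (squares) of pools labelled Lepr deletion (orange) and control pools (blue). Numbers beside points are pools. In each fraction pool 7 has the highest value of both genes and of the markers, and pool 4 the lowest.

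Markers of meninges and fibroblasts moved with both genes, as the plot against the marker sum shows. The 8 markers (Dcn, Lum, Col1a1, Col1a2, Col3a1, Slc47a1, Slc6a13 and Islr) summed to 8.27, 7.62, 18.2 and 4.71 TPM in pulldown of pools 5 to 8, labelled Lepr deletion, against 6.68, 4.55, 3.19 and 1.88 TPM in pulldown of control pools 1 to 4. In input they summed to 17.4, 20.5, 34.3 and 11.02 TPM in pools labelled Lepr deletion, against 15.6, 7.82, 7.60 and 6.40 TPM in control pools. Pool 7 was highest and pool 4 lowest in both fractions. The mean sum in pools labelled Lepr deletion was 2.38 times that of control pools in pulldown and 2.22 times in input, and 5 of 5 tested markers were positive in pulldown and 8 of 8 in input, with none called. Their median log2 differences were 1.31 and 1.03, beside -0.01 and -0.002 over all tested genes. A marker with low counts can pass the filter through the higher group alone, so the shared direction in pulldown is no separate support. In control pulldown Lum was at 0 in pool 2 and Slc47a1 at 0 in pools 3 and 4. The part of meningeal tissue in the differences of Aldh1a2 and Crabp2 was not tested.

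Vascular markers summed to 5.25 to 21.5 TPM in pulldown labelled Lepr deletion, against 2.74 to 5.37 TPM in control pulldown, and to 16.7 to 46.2 TPM in input labelled Lepr deletion, against 13.8 to 25.6 TPM in control input. Kdr, an endothelial receptor, was the 1 vascular marker of 8 tested that was called in pulldown, at 2.12 (adjusted p = 0.0494, edgeR), and Cldn5 was at 0 in all 4 control pulldown libraries and in pool 5. The vascular sum was likewise highest in pool 7 and lowest in pool 4 in both fractions. Only the meningeal and fibroblast sum was correlated with the genes below, so the relation is not shown to be particular to it. The part of vascular cells was not tested.

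Over the 8 pools, Crabp2 and Aldh1a2 varied together. On log2 CPM, Pearson's r was 0.956 in pulldown (exact permutation p = 2.48e-05, the smallest the permutations can give, Benjamini-Hochberg 0.00223 over 90 relations) with Spearman's rho of 1.0 (exact permutation p = 4.96e-05, adjusted 0.00446). In input r was 0.985 (exact permutation p = 9.92e-05, adjusted 0.00446). There rho was 0.929 (exact permutation p = 0.00223, adjusted 0.0502), which did not pass after adjustment. Without the 2 pools farthest from the median of Crabp2, r was 0.938 in pulldown and 0.949 in input. No value was computed within a genotype, and the permutations exchange pools across genotypes. These figures and their p-values thus include the difference between genotypes and do not measure variation between pools alone.

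The log2 marker sum followed the same pools, and its figures too include the difference between genotypes. In input its r was 0.935 with Crabp2 (exact permutation p = 0.000149, adjusted 0.00446), with rho of 0.976 (exact permutation p = 0.000397, adjusted 0.0119). With Aldh1a2 in input its r was 0.940 (exact permutation p = 0.000446, adjusted 0.0100), with rho of 0.976 (exact permutation p = 0.000397, adjusted 0.0119). In pulldown r was 0.915 with Aldh1a2 (exact permutation p = 0.00151, adjusted 0.0272) and 0.851 with Crabp2 (exact permutation p = 0.00486, adjusted 0.0625). Both had a rho of 0.833 (exact permutation p = 0.0154, adjusted 0.154), which did not pass after adjustment. Without the 2 pools farthest from the median sum, r was 0.889 and 0.933 in input for Crabp2 and Aldh1a2, and 0.704 and 0.748 in pulldown. For Crabp1 r was 0.352 in pulldown (exact permutation p = 0.401; rho 0.214, exact permutation p = 0.619) and 0.268 in input (exact permutation p = 0.519; rho 0.381, exact permutation p = 0.360). Rbp4 had an r of 0.882 in input (exact permutation p = 0.00325, adjusted 0.0487), which was 0.663 without the 2 farthest pools and so rests partly on them. Its rho of 0.833 (exact permutation p = 0.0154, adjusted 0.154) did not pass after adjustment. Of the 90 relations, 6 had an adjusted p under 0.05 by Pearson's r.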

How the data were processed

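RNA of 16 libraries (4 per group) was sequenced by the authors. The submitters' processing notes name Salmon 1.10.1, DESeq2 1.38.3 and GRCm38. Trimming, strand setting and annotation release are not given in the sources used here, and overlapping or near-identical genes are uncertain. The deposited values are estimated counts and TPM for each gene, and the authors' table of log2 fold changes with adjusted p-values.

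The main test, on rounded estimated counts, was the quasi-likelihood test of edgeR 4.0.16 in R 4.3.3 (TMM, filterByExpr with minimum count 10 and total 15, Benjamini-Hochberg 0.05, two-sided), over all genes that passed the filter. Each comparison of 2 groups used their 8 libraries, and all 16 gave the difference of enrichment. The main fits did not pair the pulldown and input of a pool. Printed and drawn 95% intervals are the estimate with the normal quantile times its SE, which includes the spread between pools. They are narrower than the test implies, so an interval that leaves out 0 is not a passed test. Between genotypes in pulldown, that of Aldh1a1 ran from 0.02 to 0.68, with an unadjusted p of 0.061 (edgeR). Scripts were tested on simulated data. Floors cover counting error only, and 3 counts correspond to 0.0321 to 0.0396 CPM in pulldown and 0.0469 to 0.0561 CPM in input. Replicates differed by more than counting noise (chi-square per degree of freedom 8.16 to 49.95 over 24 pairs).

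The members and lists were chosen with earlier results of these data known. Named are the 9 members, up to 4 genes per pathway list with the smallest p in each comparison, and the 8 patterns most like Crabp1 (mean log2 CPM of at least 1); cofactors, Kdr and Cldn5 are named as examples, some after their values were seen, and some genes that the rule names are not reported here. Same-numbered input and pulldown come from the same animals per the extraction protocol; their deviations correlated at 0.0156 to 0.238, over 0.1 in 2 of 8 pools. Alternatives were RLE factors, library totals, no filter, DESeq2 1.42.0, length-scaled counts, limma 3.58.1 on log2(TPM + 1) and log2(TPM + 0.1), a pool block, and leaving out libraries.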

Additional observations from a re-analysis of the deposited data

Results flagged for a closer look

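Within-group spread was checked for the 9 genes in 36 groups of 4 libraries with Dixon's test at its 95% critical value, which chance alone passes in about 1 of 20 groups, and 2 groups passed it. Rara in input of pool 8, labelled Lepr deletion, had 16.8 CPM, a sample far above the other 3 (gap over range 0.832), against 14.7 to 16.3 CPM in control input. Rarg in pulldown of control pool 4 had 1.25 CPM (gap over range 0.905), while the other 3 control pulldown libraries had 0.746 to 0.795 CPM and those labelled Lepr deletion 0.682 to 0.911 CPM.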

How the results depend on the processing

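Of 901 values under alternatives for single-gene results that passed the test as reported, 22 changed sign, 5 with library totals, 8 on each TPM scale and 1 with length-scaled counts. Of 1901 values for results that did not pass, or were given with no test, 136 changed sign, 74 of them when libraries were left out. In all, 46 values newly passed and 29 no longer passed in the same direction. The enrichment of Crabp1, given with no test, was 2.45 with library totals, 2.92 on log2(TPM + 1) and 2.96 on log2(TPM + 0.1) in pools labelled Lepr deletion, and 2.56, 2.98 and 3.02 in control pools. Fold changes of pulldown over input were higher than with TMM, by a median of 0.46 in pools labelled Lepr deletion and 0.55 in control pools with library totals and by 0.86 and 0.93 on log2(TPM + 1), where the share of called genes that were higher was 74.4% and 76.2%, and 84.1% and 84.3%, against 46.8% and 46.5% with TMM. Values that turned sign and passed in either setting were as follows. In pools labelled Lepr deletion, library totals, log2(TPM + 1) and log2(TPM + 0.1) in this order gave 0.010, 0.17 and 0.19 for Ncoa3, 0.36, 0.88 and 0.90 for Med1, 0.36, 0.74 and 0.80 for Nrip1, and 0.42, 0.89 and 0.90 for Fabp5. The 2 TPM settings gave 0.063 and 0.067 for Rxra. In control pools the same 3 settings gave 0.032, 0.42 and 0.47 for Ncoa3, 0.31, 0.72 and 0.73 for Crebbp, 0.28, 0.67 and 0.74 for Nrip1, and 0.35, 0.94 and 0.97 for Med1, which was at 0.0063 with length-scaled counts. The 2 TPM settings gave 0.37 and 0.40 for Rxra and 0.070 and 0.090 for Ppard.

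Between genotypes, in pulldown the 108 became 266 with no filter, 1065 with DESeq2, 16 with length-scaled counts, 18 and 13 on log2(TPM + 1) and log2(TPM + 0.1), 3363 without pools 1 and 5, and 19 to 1262 when 1 library was left out. In input the 41 became 108 with library totals, 261 with no filter, 376 with DESeq2, 11 with length-scaled counts, 14 and 9 on the TPM scales, 1957 without pools 1 and 5, and 19 to 402 when 1 library was left out. Members called were 2 with no filter, 1 with DESeq2 and 4 without pools 1 and 5 in pulldown, 2 with no filter and 3 without pools 1 and 5 in input, and 0 to 2 in either when 1 library was left out. The difference of enrichment called 4 genes with RLE factors, 4 with library totals, 6 with no filter, 21 with DESeq2, 0 with length-scaled counts, 1 and 0 on the TPM scales, 87 without pools 1 and 5 and 1 to 3 when 1 library was left out. With pool number as a replicate block it called 4 genes, enrichment called 11054 genes in pools labelled Lepr deletion and 12178 in control pools, and the block changed no call of the 9. Over the alternatives the adjusted p of Crabp2 ran from 0.000418 to 0.277 in pulldown and from 0.00560 to 0.424 in input, and that of Aldh1a2 from 0.00150 to 0.300 and from 0.00328 to 0.514. The omission of pools 1 and 5 was chosen with earlier results of these data known. The causes were not tested. Of the 9 genes, Aldh1a2 had the largest SE in control enrichment, at 0.44, and between genotypes in pulldown, at 0.37.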
